A study of Mus musculus with 12 samples.

Results

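Catalase, the superoxide dismutases and the glutathione peroxidases are among the enzymes that remove superoxide and peroxides in mouse muscle. The members were chosen by gene symbol to cover these 3 enzyme families in the different compartments of the cell and outside it, together with the copper chaperone of superoxide dismutase: Cat, Sod1, Sod2, Sod3, Ccs, Gpx1, Gpx3, Gpx4, Gpx7 and Gpx8. They are 10 of the 47729 genes counted, and all 10 were among the 14194 genes that passed the filter on low counts. The choice used the gene names and not the direction of any change, but it was made with earlier results of these data known.

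RNA of muscle from male mice aged 5 months on a C57BL/6 background was sequenced in 12 libraries, 3 in each of 4 groups. Wild-type and NRF2-knockout mice were each either kept sedentary or run on a treadmill. The muscle taken, the construction of the knockout allele and the length of the treadmill exercise are not stated in the labels. Nor do the labels say whether the 3 libraries of a group came from separate animals, so the p-values given here reflect differences among these libraries, which may be technical.

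Superoxide dismutases convert superoxide to hydrogen peroxide. Catalase, in peroxisomes, and the glutathione peroxidases then break down hydrogen peroxide. Not all enzymes of the latter family rely on glutathione as the reductant, and some also act on lipid peroxides. NRF2, the product of Nfe2l2, is a transcription factor that binds antioxidant response elements and is best known for driving glutathione, thioredoxin and quinone-detoxifying genes.

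Counts per library totalled 21232040 to 29990968. Nfe2l2 had 830 to 1275 counts in the 6 wild-type libraries and 54 to 84 in the 6 knockout libraries, which fits the genotype label of all 12. The libraries were sequenced on lanes 3, 4, 7 and 8. The first-numbered library of each wild-type group came from lanes 7 and 8, which held no knockout library, and the other 10 libraries came from lanes 3 and 4. Summed skeletal muscle markers (7 genes, including Ckm and Ttn) lay between 45300 and 53700 CPM in all 12 libraries, where CPM is the normalized count scaled to 1000000 reads. None of the markers of the 11 cell types examined was at 0. Because muscle tissue was sequenced in bulk, fewer cells of a type and less RNA per cell cannot be told apart.

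The windows upstream of the annotated start sites are shown for the 3 members that changed with genotype and for Sod1, the one member with an antioxidant response element core in its window. The core searched was TGACNNNGC, and the second motif was the CCAAT box, each on both strands. Among 32851 windows of 250 bases upstream of mouse RefSeq start sites, 10.2% held the core and 33.8% held CCAAT. RefSeq (build GRCm38.p6) gave windows for 8 of the 10 members, 11 windows in all, with 4 for Gpx4; Sod3 and Ccs had no entry. Capitals mark the motif matches, each line reads 5′ to 3′ on the gene's strand, and bases inside annotated exons were left out. The windows are chr2:103485161-103485403, minus strand, for Cat, chr11:54902604-54902771, plus strand, for Gpx3, chr10:80053315-80053487, plus strand, for 1 of the Gpx4 start sites, and chr16:90220512-90220753, plus strand, for Sod1.
Cat: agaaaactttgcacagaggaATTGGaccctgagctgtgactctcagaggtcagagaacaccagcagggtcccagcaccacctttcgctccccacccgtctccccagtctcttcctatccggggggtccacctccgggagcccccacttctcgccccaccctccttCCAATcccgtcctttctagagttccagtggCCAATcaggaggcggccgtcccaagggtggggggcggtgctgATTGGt
Gpx3: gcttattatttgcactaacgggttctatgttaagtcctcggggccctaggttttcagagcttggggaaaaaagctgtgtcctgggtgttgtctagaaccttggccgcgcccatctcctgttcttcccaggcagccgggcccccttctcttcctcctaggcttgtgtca
Gpx4: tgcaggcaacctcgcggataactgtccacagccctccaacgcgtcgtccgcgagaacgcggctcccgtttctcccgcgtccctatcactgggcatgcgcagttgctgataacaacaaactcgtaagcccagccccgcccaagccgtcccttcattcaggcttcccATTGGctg
Sod1: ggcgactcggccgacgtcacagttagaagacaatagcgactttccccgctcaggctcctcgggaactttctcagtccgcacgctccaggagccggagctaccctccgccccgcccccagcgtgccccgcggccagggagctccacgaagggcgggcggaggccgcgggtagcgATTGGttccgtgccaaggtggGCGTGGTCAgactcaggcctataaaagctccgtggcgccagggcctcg

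In Sod1 the core lay on the opposite strand as GCGTGGTCA, at bases -56 to -48 from the start site (chr16:90220706-90220714), and no other member's window held it. The Cat window held 4 CCAAT matches, 2 on each strand, starting at -230, -85, -55 and -13. The full Gpx3 window held 1 CCAAT match, and the 4 Gpx4 windows held 1, 2, 3 and 0. These matches describe the letters of the windows; no binding was measured.

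Per length of transcript the members spanned a wide range of levels, and Sod1, which encodes the cytosolic copper-zinc enzyme, and Gpx3, which encodes the secreted plasma glutathione peroxidase, stood at the top. Using the gene lengths implied by the authors' own tables, the mean over all 12 libraries was 173 ± 9.7 RPKM (reads per kilobase scaled to 1000000 reads; SD, n = 12) for Sod1. Gpx3 followed at 116 ± 17 RPKM. Sod2, the mitochondrial manganese enzyme, had 56.0 ± 4.1 RPKM. The lowest Sod1 library (160 RPKM) was above the highest Gpx3 library (147 RPKM), and every Gpx3 library was above every Sod2 library, so these levels were separate. Gpx1, the major cytosolic and mitochondrial glutathione peroxidase, had 40.5 ± 2.8 RPKM. Gpx4, which reduces phospholipid hydroperoxides in membranes, had 38.3 ± 4.3 RPKM. The ranges of Gpx1 (36.8 to 45.0) and Gpx4 (32.8 to 43.2) overlapped, so their order was within the spread. Cat had 19.2 ± 4.5 RPKM. Gpx8 and Gpx7, which encode peroxidases of the endoplasmic reticulum, had 9.99 ± 1.4 and 4.17 ± 0.53 RPKM. Ccs, which delivers copper to the Sod1 protein, had 9.28 ± 0.81 RPKM and overlapped Gpx8, while Cat (14.3 to 26.1) was separate from Gpx4 above it and Gpx8 below it. Sod3, the secreted extracellular superoxide dismutase, was lowest at 2.58 ± 0.58 RPKM, with its range (1.89 to 3.84) reaching into that of Gpx7 (3.62 to 5.51).

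The length used set the level of Sod1, Sod2 and Ccs, changed that of Gpx8 slightly (9.99 to 9.68 RPKM), and set the place of Sod1 and Sod2 in the order. With the union of annotated exons, Sod1 is 3970 bases long instead of 646 and came to 28.1 RPKM, Sod2 is 10008 bases instead of 3824 and came to 21.4, and Ccs is 1782 bases instead of 1057 and came to 5.5. Gpx3 then led. The shorter lengths are the ones that link the deposited counts to the deposited RPKM. Within groups, Sod1 varied least between libraries, with a coefficient of variation of 4.8%, and Sod3 varied most, with 24%.

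**Figure D1:**
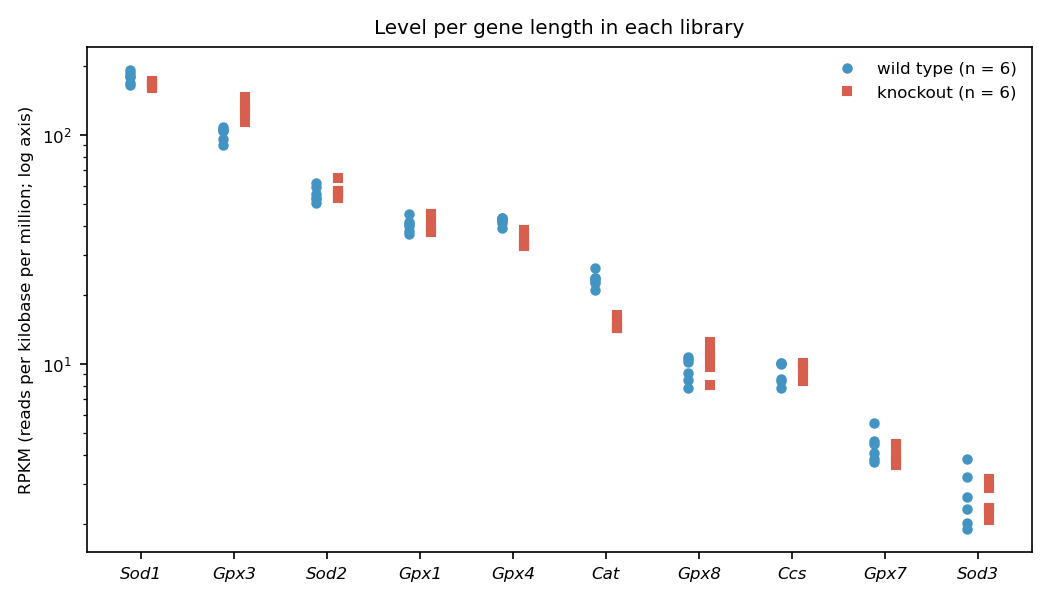
Level of each enzyme gene per kilobase of the length implied by the authors' tables, in RPKM on a log axis, for the 6 wild-type libraries (circles) and the 6 knockout libraries (squares). Genes run from the highest mean, Sod1 at 173, to the lowest, Sod3 at 2.58, and the 2 genotypes separate at Cat, Gpx3 and Gpx4.

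The knockout comparison asked how muscle without NRF2 differs in these enzymes. Averaged over both exercise states (6 libraries against 6), Cat and Gpx4 fell, Gpx3 rose, and the 4 genes of the superoxide dismutase side, Sod1, Sod2, Sod3 and Ccs, did not pass the test, nor did Gpx1, Gpx7 and Gpx8. Thus 1 of 10 members rose and 2 fell at an adjusted p under 0.05 (edgeR, quasi-likelihood test, Benjamini-Hochberg over all genes). Of all 14194 genes, 0.127% were called higher and 0.564% lower in this comparison, which is 18 and 80 genes. With lane as a term the numbers were 115 higher and 149 lower. The median log2 fold change of the members was -0.04, beside 0.01 over all genes tested.

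Cat encodes catalase, the hydrogen peroxide-decomposing enzyme of the peroxisome, and lies on the minus strand of chromosome 2 (chr2:103453849-103485160, GRCm38). The sedentary wild-type libraries had 68.2, 62.0 and 54.6 CPM, and the treadmill ones 58.7, 62.2 and 60.0 CPM. In knockout sedentary muscle it had 40.1, 42.8 and 41.2 CPM, and in knockout treadmill muscle 37.5, 37.3 and 37.7 CPM. All 6 knockout libraries were lower than all 6 wild-type libraries. The gap between the nearest of them was wider than the range of the knockout libraries but narrower than that of the wild-type libraries. Mean levels were 61.0 ± 4.5 CPM with NRF2 and 39.4 ± 2.3 CPM without it (SD, n = 6 each). Cat thus fell by 35.4%, a log2 fold change of -0.63 (SE 0.057, 95% interval -0.75 to -0.51), with an adjusted p of 3.16e-05 in edgeR's quasi-likelihood test.

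The fall in Cat was found in each exercise state and in lanes 3 and 4, the lanes that held both genotypes. In sedentary mice alone the log2 fold change was -0.57 (SE 0.081), with an adjusted p of 0.00425 in edgeR's test, and in treadmill mice alone it was -0.69 (SE 0.081), with an adjusted p of 0.000838. In these comparisons of 3 libraries against 3, Cat was the 1 member called by edgeR's test without a lane term, against a background of 0.0141% of all genes called higher and 0.176% called lower in sedentary mice, and 0.00705% and 0.155% in treadmill mice. DESeq2 also called Gpx3 in sedentary mice and Gpx4 in treadmill mice, and edgeR's test with lane as a term called Gpx3 in sedentary mice. Over all genes DESeq2 called 72 of 11441 in sedentary and 55 of 11716 in treadmill mice. With lane as a term edgeR's test called 81 of 14194 genes in sedentary mice. The sedentary call of Cat in edgeR's test was lost (adjusted p = 0.0673) when the 6 treadmill libraries were left out of the fit. Within lane 3 the mean was 40.2 CPM in 3 knockout libraries and 62.1 CPM in 2 wild-type libraries, a log2 difference of -0.63. Within lane 4 the means were 38.7 and 57.3 CPM, a log2 difference of -0.56. The libraries of the 2 genotypes did not overlap in either lane. How many of all genes were separated in this way was not counted, for Cat or for the members below. Cat passed edgeR's test in lane 3 alone (adjusted p = 0.00852) and in lane 4 alone (adjusted p = 0.0145). With 3 knockout and 2 wild-type libraries per lane and a term for exercise, these tests had few residual degrees of freedom. The lane means were not adjusted for exercise. Knockout libraries were 2 sedentary and 1 treadmill in lane 3, and the reverse in lane 4.

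Gpx3 lies on chromosome 11 (chr11:54902453-54910377, plus strand) and encodes the glutathione peroxidase that is secreted into plasma. It had 188, 174.7 and 164 CPM in wild-type sedentary muscle and 190.1, 196 and 191 CPM after the treadmill. It had 206, 239 and 244 CPM in knockout sedentary muscle and 223, 267 and 230.4 CPM in knockout treadmill muscle. Every knockout library was above every wild-type library, although the lowest knockout value (206) and the highest wild-type value (196) were close. The 6 wild-type libraries averaged 184 ± 12 CPM and the 6 knockout libraries 235 ± 21 CPM, a rise of 27.7% or 0.35 on the log2 scale (SE 0.063, 95% interval 0.22 to 0.49), with an adjusted p of 0.0173 in edgeR's test. Within lanes the log2 difference was 0.26 in lane 3 and 0.48 in lane 4, with no overlap in either, but Gpx3 did not pass edgeR's test in lane 3 alone (adjusted p = 0.207) or lane 4 alone (adjusted p = 0.0717). In the single exercise states Gpx3 did not pass, with log2 fold changes of 0.39 in sedentary mice (adjusted p = 0.175) and 0.32 in treadmill mice (adjusted p = 0.447). With lane as a term edgeR's test called it in sedentary mice (0.42, adjusted p = 0.047), as did DESeq2 (adjusted p = 0.014). The averaged call was lost when any 1 of 5 libraries was left out: knockout sedentary 2 or 3, knockout treadmill 2, wild-type sedentary 2 or wild-type treadmill 2, with adjusted p up to 0.0663. The summed tenocyte markers (5 genes) moved the same way as Gpx3, from 234 to 305 CPM in wild type to 318 to 405 CPM in knockout, without overlap. All 5 had a log2 fold change above 0, and 1 of them, Thbs4 (named after its value was seen), passed the averaged test. The part of this difference in the Gpx3 result was not tested. The summed Schwann cell markers (6 genes) lay between 85.4 and 96.2 CPM in knockout and between 62.3 and 95.2 CPM in wild type, where the highest value was the lane 7 library. All 6 had an averaged log2 fold change above 0 (0.12 to 0.26), none passed edgeR's test or DESeq2, 2 had an unadjusted p under 0.05, and with lane as a term 1 passed, Pmp22 (named after its value was seen). Their part in the Gpx3 result was not tested either. Adipocyte markers lay between 286 and 736 CPM in knockout and 273 and 444 CPM in wild type. Endothelial markers (7 of 8 above 0) and smooth muscle and pericyte markers (6 of 7) each had an averaged median log2 fold change of 0.15. None of them passed edgeR's test, and 2 in each list had an unadjusted p under 0.05. Fibroblast markers were split, with 3 of 6 above 0, and 0 of 6 erythroid markers were above 0. The part of these cell types in the Gpx3 result was not tested.

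Gpx4 lies on chromosome 10 (chr10:80047166-80056439, plus strand). Wild-type muscle had 67.4, 72.5 and 71.2 CPM when sedentary and 74.4, 74.4 and 74.3 CPM after the treadmill. In knockout sedentary muscle it had 57.6, 62.3 and 58.9 CPM, and in knockout treadmill muscle 56.5, 66.0 and 56.7 CPM. All knockout libraries were below all wild-type libraries, with the highest knockout value, treadmill library 2 at 66.0, just under the lowest wild-type value of 67.4. Gpx4 fell by 17.5%, from a mean of 72.4 ± 2.8 CPM to 59.7 ± 3.8 CPM in knockout (log2 fold change -0.28, SE 0.053, 95% interval -0.39 to -0.16, adjusted p = 0.0273 in edgeR's test). It did not pass in sedentary mice (log2 fold change -0.24, adjusted p = 0.415) or in treadmill mice (-0.32, adjusted p = 0.241), where DESeq2 called it (adjusted p = 0.0414). Within lanes 3 and 4 the log2 differences were -0.32 and -0.27, without overlap, but Gpx4 did not pass edgeR's test in lane 3 alone (adjusted p = 0.0898) or lane 4 alone (adjusted p = 0.557). The averaged call was lost when any 1 of 7 libraries was left out: knockout sedentary 1, 2 or 3, knockout treadmill 1 or 3, wild-type sedentary 2 or wild-type treadmill 2, with adjusted p up to 0.0929.

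The count of Gpx4 is uncertain in a further respect. Of the 1805 distinct 50-base words in its annotated transcripts, 627, or 34.7%, also occur in a transcript of another gene, in 2 genes that the counts table does not list, mainly the pseudogene Gpx4-ps2. How reads that match several places were treated is not given in the sources used here. Sod2 shared 2107 of 10012 words and Sod1 137 of 4008 words with other genes. The 1 gene sharing words with Sod1, Gm8566, had at most 11 counts in any library. The remaining 7 members shared none, and no member's exons overlapped those of another gene on either strand.

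Across the genome 0.486% of genes had all 6 knockout libraries above all 6 wild-type libraries, and 1.30% had them all below, the pattern shown by 1 and 2 of the 10 members. Without the lane 7 and 8 libraries and with lane as a term in the fit, the averaged log2 fold change was -0.60 for Cat, 0.37 for Gpx3 and -0.29 for Gpx4, with adjusted p of 1.5e-05, 0.00953 and 0.0164 in edgeR's test. That fit was chosen after seeing the data and called 271 of 14266 genes. The fit planned beforehand, without the lane term, called 158 of 14266 genes. In edgeR's test it gave -0.60, 0.37 and -0.29, with adjusted p of 2.76e-05, 0.0147 and 0.021.

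**Figure D2:**
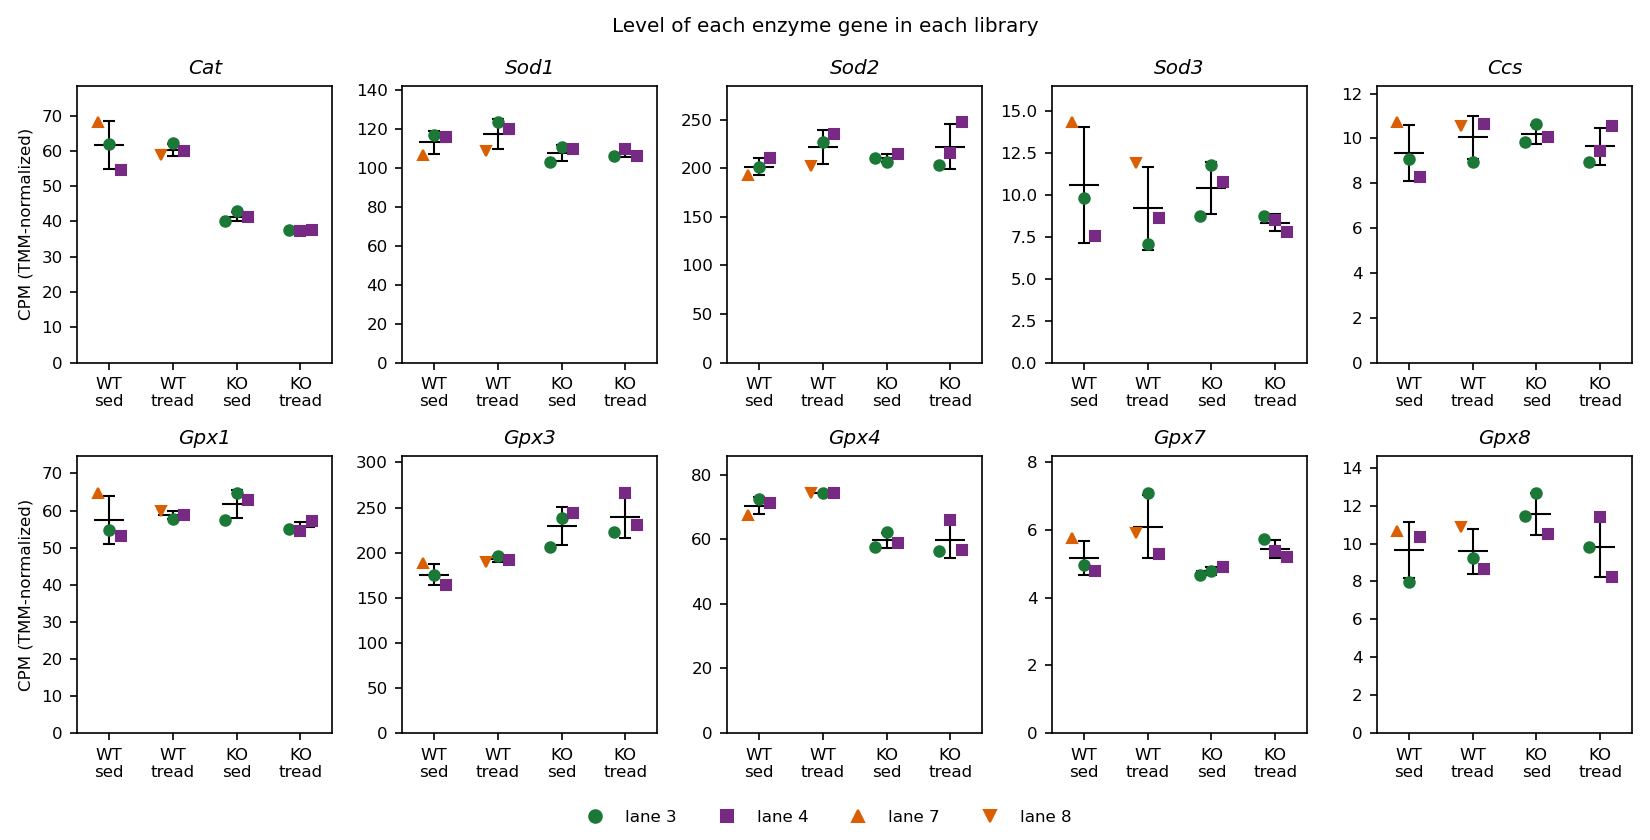
Normalized level (CPM) of each enzyme gene in each of the 12 libraries, from 0, by group (WT, wild type; KO, NRF2 knockout; sed, sedentary; tread, treadmill). Points are libraries with the sequencing lane as colour and shape, and black bars are the group mean ± SD (n = 3). The knockout libraries of Cat lie at 37.3 to 42.8 and its wild-type libraries at 54.6 to 68.2, while the 2 genotypes overlap at Gpx1 (53.0 to 64.9 and 54.4 to 64.8) and Sod2.

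The superoxide dismutases and their chaperone did not pass in any comparison of genotype. Sod1 had 107 to 124 CPM in the wild-type and 103 to 111 CPM in the knockout libraries, with means of 115 ± 6.5 and 108 ± 2.8 CPM. Its averaged log2 fold change was -0.10 (95% interval -0.21 to 0.01, adjusted p = 0.455 in edgeR's test). The 2 wild-type libraries from lanes 7 and 8 were its lowest wild-type values, at 107 and 109 CPM, inside the knockout range. Within lane 3 the means were 107 CPM in knockout and 120 CPM in wild type, and within lane 4 they were 109 and 118 CPM. The genotypes did not overlap in either lane, a pattern whose share over all genes was not counted. With lane as a term the estimate was -0.15 with an adjusted p of 0.12, so Sod1 did not pass there either. Sod2 averaged 212 ± 17 CPM with NRF2 and 217 ± 16 CPM without it (log2 fold change 0.04, 95% interval -0.09 to 0.16). Ccs had means of 9.70 ± 1.1 and 9.91 ± 0.66 CPM (0.03, 95% interval -0.15 to 0.20). The intervals of Sod2 and Ccs held neither the estimate of Cat nor those of Gpx3 and Gpx4.

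Sod3 was the member with the largest difference between lanes 7 and 8 and lanes 3 and 4. It had 14.4, 9.81 and 7.57 CPM in wild-type sedentary muscle and 11.9, 7.05 and 8.64 CPM in wild-type treadmill muscle, where the first of each set came from lane 7 or 8. The knockout libraries had 8.72, 11.8 and 10.8 CPM when sedentary and 8.74, 8.49 and 7.77 CPM after the treadmill. The lane 7 and 8 libraries were the highest of the 12. Compared with the mean of lanes 3 and 4 they were higher by 0.66 on the log2 scale, with an adjusted p of 0.0039 in edgeR's test. The averaged knockout estimate was -0.10 (95% interval -0.42 to 0.23) and turned to 0.17 with lane as a term, without an adjusted p under 0.05 in either fit. Summed fibroblast markers were 1580 to 1850 CPM in the lane 7 and 8 libraries and 1210 to 1660 CPM in the other 10, and macrophage markers were 276 to 368 and 141 to 307 CPM; their part in the Sod3 values was not tested.

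Gpx1 averaged 58.1 ± 4.2 CPM with NRF2 and 58.6 ± 4.3 CPM without it, with a log2 fold change of 0.01 (95% interval -0.12 to 0.14). In treadmill mice alone its 3 knockout libraries (54.4 to 57.1 CPM) lay below the 3 wild-type libraries (57.6 to 59.9 CPM). The log2 fold change was -0.08, with an adjusted p of 0.894 in edgeR's test. The share of all genes separated between genotypes in treadmill mice was not counted. Gpx7 had 5.63 ± 0.84 and 5.11 ± 0.41 CPM (-0.14, 95% interval -0.33 to 0.06). Gpx8 had 9.63 ± 1.2 and 10.7 ± 1.5 CPM (0.14, 95% interval -0.08 to 0.36). Over both exercise states all 3 overlapped between genotypes, and the intervals of Gpx7 and Gpx8 hold changes as large as that of Gpx4.

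**Figure D3:**
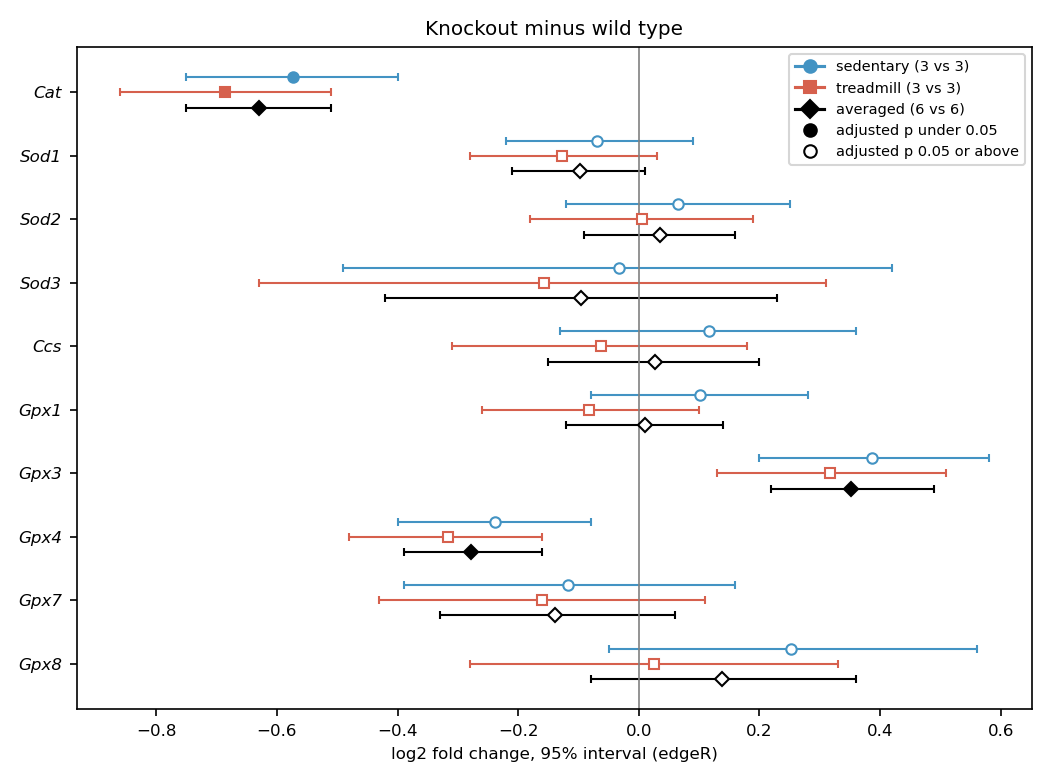
Knockout minus wild type for each enzyme gene as log2 fold change with its 95% interval from edgeR, in sedentary mice, in treadmill mice and averaged over both. Filled symbols have an adjusted p under 0.05: Cat in all 3 comparisons (-0.57, -0.69 and -0.63), Gpx3 (0.35) and Gpx4 (-0.28) in the averaged comparison.

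The treadmill comparison asked whether exercise changed these enzymes in either genotype. No member passed: 0 of 10 in wild type, 0 of 10 in knockout and 0 of 10 averaged over genotype, where 0% of all genes were called by edgeR's test. DESeq2 called none of the 10 members in these comparisons either, and over all genes it called 0, 0 and 1. With lane as a term edgeR's test called 26 genes in knockout and 28 averaged, none of them a member. At an unadjusted p under 0.05 the members counted 0 in wild type, 0 in knockout and 1 in the averaged comparison, and all genes counted 308, 534 and 589. That member was Gpx7, whose mean went from 5.17 ± 0.51 to 6.09 ± 0.93 CPM in wild type and from 4.78 ± 0.13 to 5.44 ± 0.28 CPM in knockout. Its averaged log2 fold change was 0.21 (95% interval 0.01 to 0.40), with a p of 0.0404 and an adjusted p of 0.971 in edgeR's test.

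Some members were separated between exercise states without passing. In wild type the 3 treadmill libraries of Gpx3 (190.1 to 196 CPM) lay above the 3 sedentary ones (164 to 188 CPM), and those of Gpx4 (74.3 to 74.4 CPM) lay above theirs (67.4 to 72.5 CPM). In knockout the treadmill libraries of Cat (37.3 to 37.7 CPM) lay below the sedentary ones (40.1 to 42.8 CPM). Those of Gpx1 lay between 54.4 and 57.1 CPM against 57.5 to 64.8 CPM, and those of Gpx7 averaged 5.44 ± 0.28 CPM against 4.78 ± 0.13 CPM. Thus 2 of 10 members did not overlap in wild type and 3 of 10 in knockout, against 5.72% and 12.5% of all genes that did not overlap in either direction. The log2 fold changes were small: 0.13 for Gpx3 and 0.08 for Gpx4 in wild type, and -0.14 for Cat, -0.15 for Gpx1 and 0.18 for Gpx7 in knockout. In wild type 6 of 6 erythroid markers (median 0.62) and 7 of 7 adipocyte markers (0.28) were above 0 for the treadmill. So were 7 of 8 endothelial markers (0.12), against 1 of 8 macrophage (-0.097) and 0 of 6 slow fibre markers (-0.45). In knockout 0 of 6 erythroid (median -0.55), 0 of 8 endothelial (-0.14) and 0 of 5 tenocyte markers (-0.16) were above 0. Few adipocyte (1 of 7, -0.4), fibroblast (1 of 6, -0.28) and macrophage markers (1 of 8, -0.18) were. Fast fibre (6 of 6, median 0.11) and Schwann cell markers (5 of 6, 0.05) went the other way. None of these markers passed edgeR's test. Their part in the members' values was not tested. Taking the wild-type libraries as pairs by replicate number, Sod1, Sod2, Gpx3, Gpx4 and Gpx7 were higher after the treadmill in 3 of 3 pairs, as were 13.9% of all genes, and no member passed edgeR's test with the replicate block.

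The difference between the treadmill effects of the 2 genotypes was tested directly as an interaction. Of the members 0 of 10 passed, as did 0% of all genes in edgeR's test. DESeq2 also called 0 members and 0 genes, and 270 genes but no member had an unadjusted p under 0.05. The members' estimates ran from -0.23 for Gpx8 to -0.04 for Gpx7. All 10 were below 0, with a median of -0.09, beside -0.01 over all genes. Some cell type markers also lay mostly below 0: 0 of 6 erythroid (median -1.2), 0 of 8 endothelial (-0.19) and 1 of 7 adipocyte markers (-0.72) were above 0. Slow fibre markers went the other way, with 5 of 6 above 0 (median 0.47). The part of these cell types in the members' estimates was not tested. For Cat the interaction was -0.11 (95% interval -0.36 to 0.13), so the fall in knockout muscle did not differ detectably between sedentary and treadmill mice. The widest intervals among the members were those of Sod3, from -0.78 to 0.53 for the interaction.

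**Figure D4:**
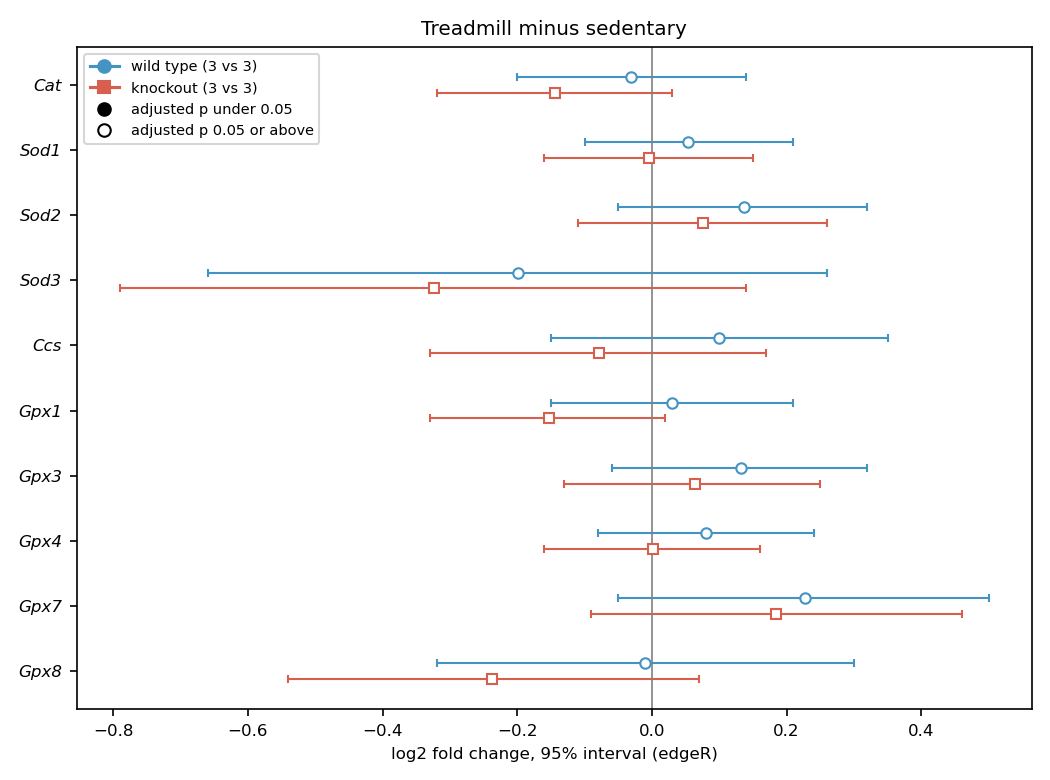
Treadmill minus sedentary for each enzyme gene as log2 fold change with its 95% interval from edgeR, in wild type (circles) and knockout (squares). All symbols are open because no adjusted p was under 0.05, and all 20 intervals include 0.

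Genes that work around these enzymes were counted from lists, in the averaged knockout comparison, in which 1753 of the 14194 genes had an unadjusted p under 0.05. Gpx2, Gpx5 and Gpx6, the other glutathione peroxidases, did not reach the count filter. Of the oxidases that form superoxide or hydrogen peroxide, 19 of 29 were tested, 1 fell and none rose; the median log2 fold change of the 19 was 0.03. DESeq2 called 2 of the 19, Aox1 and Maob (0.31, adjusted p = 0.00933), a monoamine oxidase named after its value was seen. Over all genes DESeq2 called 235 of 11166 in this comparison. The gene that fell in edgeR's test was Aox1, aldehyde oxidase, which forms hydrogen peroxide as it oxidizes aldehydes: its level was 26.8 to 36.1 CPM with NRF2 and 8.63 to 11.4 CPM without it (log2 fold change -1.69, adjusted p = 1.5e-07 in edgeR's test).

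Catalase is imported into peroxisomes, and 22 genes of peroxisome assembly and membrane were all tested. None passed in edgeR's test or in DESeq2, and 3 had an unadjusted p under 0.05. The median was 0.01. The nearest were Slc25a17, a peroxisomal membrane carrier, from 10.8 ± 0.80 to 12.7 ± 0.76 CPM (0.24, adjusted p = 0.123), and Pex6, an ATPase of the import machinery, from 15.6 ± 2.7 to 12.3 ± 1.1 CPM (-0.35, adjusted p = 0.18). Gpx1, Gpx3 and Gpx4 are selenoproteins, and of the genes of selenoprotein synthesis and selenium supply 10 of 12 were tested. None passed in edgeR's test or in DESeq2, and 0 had an unadjusted p under 0.05. Selenop, the selenium carrier, had 333 ± 45 CPM with NRF2 and 377 ± 35 CPM without it (0.18, adjusted p = 0.441), and Secisbp2, which binds the selenocysteine insertion element, had 11.7 ± 1.1 and 12.6 ± 0.91 CPM (0.11, adjusted p = 0.594).

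Of the genes listed for copper and manganese supply 9 of 11 were tested. None passed in either tool, and 1 had an unadjusted p under 0.05. Slc25a39 is a mitochondrial carrier listed only because its yeast relative is needed to load Sod2 with manganese. It had 36.1 ± 1.8 CPM with NRF2 and 31.4 ± 2.4 CPM without it (-0.21, adjusted p = 0.13 in edgeR's test). Atp7a, a copper pump, had 6.57 ± 0.95 and 7.63 ± 1.0 CPM (0.22, adjusted p = 0.441). All 11 genes on the list of transcription factors and cofactors that act on members were tested, and none passed in either tool; 2 had an unadjusted p under 0.05. Nfe2l1, a relative of NRF2 that binds the same elements, had 683 ± 29 CPM with NRF2 and 624 ± 14 CPM without it (-0.13, adjusted p = 0.301), and its libraries did not overlap. Pparg, a nuclear receptor, had 3.73 ± 0.32 and 4.55 ± 0.93 CPM (0.28, adjusted p = 0.387).

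Cat and Nfe2l2 lie on the same chromosome, 27.7 Mb apart. Within 1 Mb on each side of Cat 14 genes were tested, and none passed the averaged knockout test in edgeR or DESeq2. Their log2 fold changes ran from -0.17 to 0.24. In edgeR's test 1 of the 14, Nat10 (-0.17, adjusted p = 0.384), had an unadjusted p under 0.05. The next by p were D430041D05Rik (0.24) and Cd59a (0.23). The averaged log2 fold change of Cat itself was -0.63. Whether its place on the chromosome of the targeted gene had a part in this was not tested.

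The genes whose levels tracked each changed member most closely over the 12 libraries were named by the correlation of log2 CPM, which the genotype groups and lanes shared by all points contribute to. For Cat they included Creld1 (Pearson r = 0.966) and Osgin1 (0.964), a known NRF2 target. The averaged knockout log2 fold change was -0.90 for Creld1 and -1.87 for Osgin1, and both passed edgeR's test (adjusted p = 4.86e-06 and 2.13e-08). Genes picked by correlation with a member that is split by genotype tend to differ by genotype too. The knockout tests of the genes named here are therefore no separate evidence. For Gpx4 they were Dvl1 (0.949), Pih1d1 (0.943) and Pdlim7 (0.942), of which Pdlim7 passed (-0.28, adjusted p = 0.0247). For Gpx3 they were Cd9 (0.871), Dkk3 (0.866) and Gprc5b (0.863), and none of these passed (adjusted p = 0.182, 0.0755 and 0.0684).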

How the data were processed

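Libraries were made with a TruSeq RNA kit that does not mark strand, per the labels' protocols. Per the submitters' processing notes, the tools were STAR 2.4.1d, featureCounts 1.4.6-p4 and bcl2fastq 1.8.4, and the build was GRCm38. The annotation release was not given in the sources used here. All tests used the raw counts per gene that the authors deposited. They also deposited RPKM values, which divide by library totals taken in turn down the table and not by each library's own total (2178 of 2178 well-counted genes within 0.1%), so that values are off by 0.708 to 1.41 times. Deposited RPKM therefore served only as an alternative and, with the counts, for the gene length each gene was given. Genes were named, located and checked for shared sequence in GENCODE M21; 47310 of 47729 matched a symbol.

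The count test was that of edgeR 4.0.16 under R 4.3.3 (TMM, filterByExpr with minimum count 10, 1 coefficient per group, 8 residual degrees of freedom, Benjamini-Hochberg over 14194 genes, threshold 0.05), after the procedure was tested on simulated data. Intervals are at 95%. CPM uses TMM-scaled totals, and log2 CPM used a prior count of 2. Each library differed from every other by more than sampling noise (mean chi-square per gene at least 6.4). Library totals of 21232040 to 29990968 limit mainly Gpx7 and Sod3, which had 108 to 192 and 143 to 479 counts.

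The members and lists were chosen with earlier results of these data known. The text names all 10 members, Nfe2l2, listed genes that passed (or the 2 of smallest p), the 3 genes correlating best with each changed member among those of at least 5 CPM, and up to 3 genes near Cat; 1 gene that this rule names is not reported here. Deviations of same-numbered wild-type libraries correlated at 0.537, 0.301 and 0.259, all above 0.1, so their numbers were taken to pair them; the numbers coincide with lanes. Other pairs of groups had at least 1 correlation below 0.1. Alternatives used DESeq2 1.42.0 and limma 3.58.1, other normalizations and filters, lane and replicate terms, and fits without single libraries or lanes.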

Additional observations from a re-analysis of the deposited data

How the results depend on the processing

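Of 1840 member values under alternatives 1662 kept their direction and side of the threshold, 147 changed sign with neither value called, 27 lost a call and 4 gained one; no called value changed sign. Averaged over exercise, Cat was called in 27 of 27 alternatives (log2 fold change -0.68 to -0.56 outside the deposited RPKM); in treadmill mice it was lost only with the deposited RPKM, and in sedentary mice also with only the groups compared in the fit. Gpx3 and Gpx4 were each called in 16 of 27. Both were lost in lane 3 alone (adjusted p = 0.207 and 0.0898), in lane 4 alone (0.0717 and 0.557) and with the deposited RPKM, and Gpx3 also with library totals alone (0.0701) and rescaled RPKM (0.0857). Gpx3 was called in sedentary mice with no filter (0.0153), lane as a term (0.047) and DESeq2 (0.014), and Gpx4 in treadmill mice by DESeq2 (0.0414). The cause was not tested.

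Over all genes, the knockout effect was called for 27 genes in sedentary mice, 23 in treadmill mice and 98 averaged, and the treadmill effect and interaction for 0. In the same order, counts were 323, 207 and 567 with no filter on low counts (treadmill effect in wild type 33, in knockout 139, averaged 91; interaction 68); 81, 103 and 264 with lane as a term (treadmill in knockout 26, averaged 28); 72, 55 and 235 by DESeq2 (treadmill averaged 1); and 5, 5 and 19 or 5, 4 and 18 with deposited RPKM at pseudocounts 0.1 and 1. Without the lane 7 and 8 libraries they were 37 in treadmill mice and 158 averaged, and with lane as a term besides, chosen after seeing the data, 61, 85 and 271 (treadmill in knockout 32). With only the groups compared, 16 were called in sedentary mice. Lane 4 alone gave 49 averaged and 9 for the treadmill, and lane 3 alone 1 for the treadmill. Leaving out 1 library gave 16 to 36, 15 to 30 and 54 to 160, and 0 for the others.

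With the replicate block the knockout counts were 42, 40 and 217 and the treadmill and interaction counts 0; in wild-type libraries alone, chosen after seeing the data, the replicate block gave 1 for the treadmill. The block changed no call of a member.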
